A study of Mus musculus with 6 samples.

Results

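The cone phototransduction genes are 10 genes that carry the light response of cone photoreceptors or set the choice of cone opsin. They are the opsin genes Opn1sw and Opn1mw, the arrestin gene Arr3, the transducin genes Gnat2 and Gngt2, the phosphodiesterase genes Pde6c and Pde6h, the channel genes Cnga3 and Cngb3, and the receptor gene Thrb. All 10 were found by symbol, with 1 gene ID each, among the 54532 genes of the deposited count table. Total RNA of whole retina from C57BL/6J mice, wild type and at postnatal day 17, had been sequenced. The 3 OIR libraries came from mice with oxygen-induced retinopathy, in which a stay of the pups in high oxygen is followed by one in room air, and the 3 normal libraries came from mice without it. The sources used here give no oxygen schedule. Each group held libraries of both sexes and so more than 1 animal, but the labels do not say that every library came from an animal of its own, and p-values cover the spread between these libraries alone. In whole retina, fewer cones and less RNA per cone cannot be told apart.

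In cones, light turns an opsin into an activator of the cone transducin, whose alpha, beta and gamma subunits are encoded by Gnat2, Gnb3 and Gngt2. Transducin releases the cone phosphodiesterase, built from Pde6c with the inhibitory subunit Pde6h, from inhibition. The fall in cyclic GMP then closes a channel built from Cnga3 and Cngb3, and Arr3, the cone arrestin, ends the signal of the opsin. Most mouse cones hold both opsins, the short-wavelength one prevailing in ventral retina and the middle-wavelength one in dorsal retina, and thyroid hormone receptor beta, the product of Thrb, is needed for Opn1mw and restrains Opn1sw.

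The promoter windows of the opsin genes and of Gnat2 are shown because the comparison turns on the opsin pair and on Gnat2, the better expressed of the members that passed the test. They come from RefSeq on GRCm38.p6 (mm10), run 5′ to 3′ on the strand of the gene, and cover 250 bases before to 50 after the start annotated there. For Opn1sw and Gnat2 the whole window lies inside the wider gene span given below, so motif distances count from the RefSeq start alone. Capitals mark TAATCC, the core bound by the photoreceptor factors CRX and OTX2, and AGGTCA, a half-site of nuclear receptors such as the product of Thrb, searched on both strands as GGATTA and TGACCT too.
Opn1sw, chr6:29380464-29380763, minus strand: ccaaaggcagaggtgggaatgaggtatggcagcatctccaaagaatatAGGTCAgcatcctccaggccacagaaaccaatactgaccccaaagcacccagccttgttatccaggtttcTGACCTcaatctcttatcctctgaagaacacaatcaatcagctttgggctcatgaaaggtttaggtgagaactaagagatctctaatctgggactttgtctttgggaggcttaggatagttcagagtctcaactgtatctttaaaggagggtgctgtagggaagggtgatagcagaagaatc
Opn1mw, chrX:74127216-74127515, plus strand: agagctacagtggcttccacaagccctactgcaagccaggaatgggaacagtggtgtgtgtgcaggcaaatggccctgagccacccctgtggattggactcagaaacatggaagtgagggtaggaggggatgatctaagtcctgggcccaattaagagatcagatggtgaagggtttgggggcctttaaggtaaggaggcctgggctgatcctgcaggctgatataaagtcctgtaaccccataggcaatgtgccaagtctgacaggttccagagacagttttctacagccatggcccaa
Gnat2, chr3:108092816-108093115, plus strand: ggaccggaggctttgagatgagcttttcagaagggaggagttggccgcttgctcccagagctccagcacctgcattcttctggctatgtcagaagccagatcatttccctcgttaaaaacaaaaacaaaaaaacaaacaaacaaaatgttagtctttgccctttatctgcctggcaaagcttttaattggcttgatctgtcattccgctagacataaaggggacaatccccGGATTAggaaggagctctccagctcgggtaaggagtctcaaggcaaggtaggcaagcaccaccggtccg
The Opn1sw window held AGGTCA and its reverse complement, beginning 202 and 132 bases before the start. The Gnat2 window held GGATTA 19 bases before its start, and the Opn1mw window held neither motif. Over the 7 members with a window, 2 of 9 windows held the CRX/OTX core, which 7.06% of all 32851 promoter windows held. Likewise, 2 of 9 held the half-site, against 16.3% of all windows. A match describes letters only and is no evidence of binding. Windows of Pde6c, Cngb3 and Gngt2 were not used here. The longest run of bases shared by the principal transcripts of Opn1sw and Opn1mw was 17, and over the cone and rod pairs compared it was at most 23.

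Depth was 15818168 to 17163513 counts per library, and 17108 genes were tested. By Xist and Y-linked transcripts, 2 OIR libraries and 1 normal library were female, and 1 OIR library and 2 normal libraries male. Rod markers were abundant in every library, with a summed level of 17132 to 18441 CPM (counts scaled to library size with TMM factors) in OIR and 21840.4 to 23611 CPM in normal retina. Cone markers summed to 963 to 1119 CPM over the 10 members in OIR and to 1110 to 1242 CPM in normal retina, and none was at 0. This sum leaves out Gnb3, a further cone marker that went the other way. Its mean was 450 CPM in OIR and 263 CPM in normal retina. Of the markers of other cells, 4 of 9 rod, 5 of 8 bipolar, 5 of 7 Müller glia, 5 of 6 amacrine, 2 of 4 horizontal and 3 of 6 pigment epithelium genes fell. Among microglial markers 3 of 6 rose, as did 4 of 5 endothelial markers. None of 6 ganglion cell markers and none of 7 lens markers passed. These marker calls rest on the test and threshold named in the next paragraph. By them, 8.73% of all genes tested were lower in OIR retina and 11.1% higher. Lens markers summed to 61.3 to 4384 CPM in OIR and 6.05 to 282 CPM in normal retina, with OIR 3 the highest. The part of these cell types in the cone values was not tested.

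Most cone genes had slightly lower means in OIR retina, and few passed the test. In edgeR's quasi-likelihood test, with p-values adjusted over all genes tested and a threshold of 0.05, 2 of the 10 members fell and 0 rose. The members that fell were Gnat2 and Cngb3. Over all genes tested, 8.73% were lower and 11.1% higher. The median log2 fold change of the members was −0.23, against 0.01 over all genes, and 8 of 10 had a negative value. At an unadjusted p under 0.05, 5 members were lower and 0 higher in the edgeR test, where 15.3% of all genes tested were lower and 17.2% higher. DESeq2 called 3 members lower, adding Opn1mw, where it called 8.52% of all its genes lower. EdgeR with no filter on low counts called 4, adding Arr3, against 5.7% of 30543 genes. That share includes the low-count genes left out of the 17108 in the main test, so it is not over the same genes as 8.73%. Leaving out 1 library gave 0 calls without OIR 1, OIR 3 or Normal 3, 1 without Normal 2 (Gnat2), 2 without OIR 2 (Opn1mw and Cngb3) and 4 without Normal 1 (Gnat2, Cngb3, Arr3 and Thrb).

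**Figure D1:**
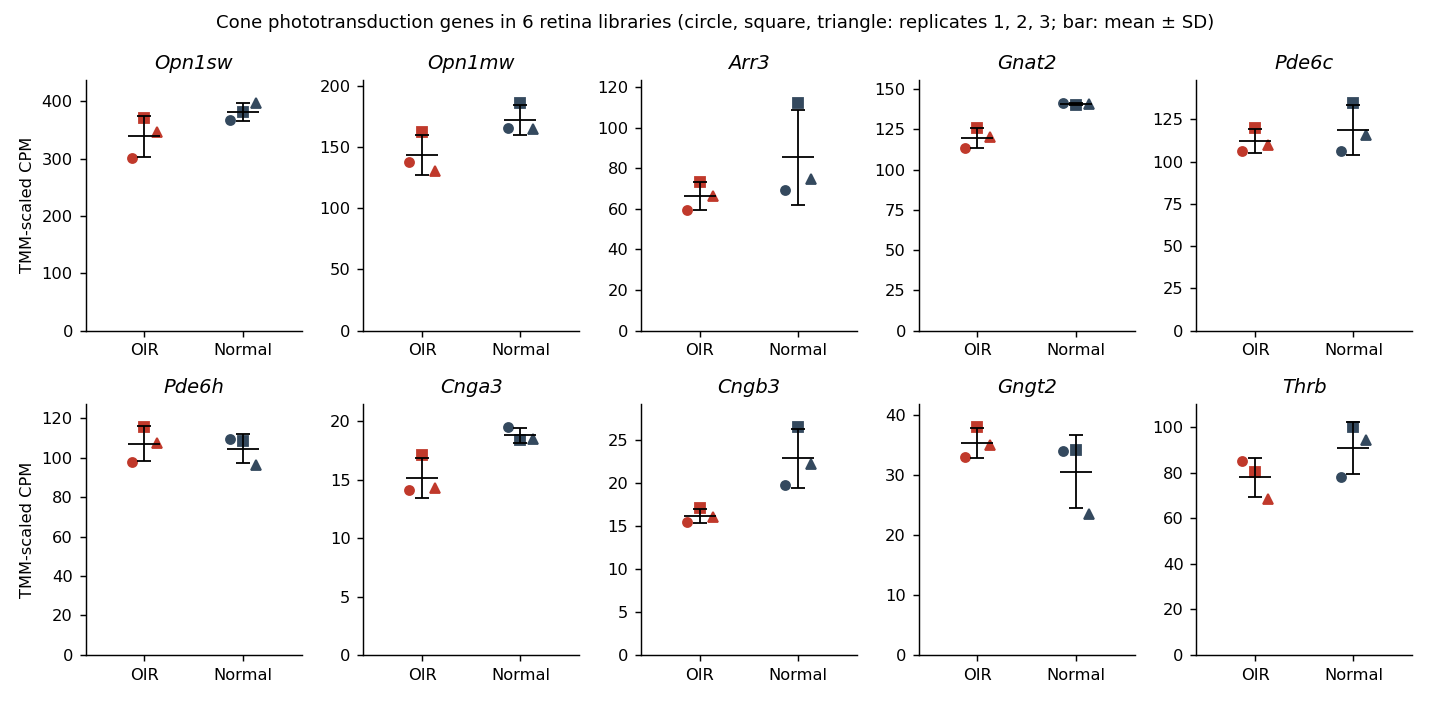
TMM-scaled CPM of the 10 members in each library, OIR left of normal, with the mean and SD over 3 libraries as bars; every axis starts at 0. The OIR points of Gnat2, Cngb3, Cnga3 and Opn1mw all lie below the normal points, while those of Pde6h, Pde6c and Gngt2 are interleaved.

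In 4 members the lowest normal library was still above the highest OIR library, namely Opn1mw, Gnat2, Cnga3 and Cngb3, and no member had the reverse pattern. Of all genes tested, 18.1% were separated in this way with OIR lower. The share separated with OIR higher is not given here, so the lack of the reverse pattern among members cannot be judged against it.

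Neither cone opsin passed the test, and both had slightly lower means in OIR retina. Opn1sw (ENSMUSG00000058831, chromosome 6, 29376671 to 29388468, minus strand, mm10) encodes the short-wavelength pigment, which in mouse absorbs ultraviolet light. It had 300.3, 370.2 and 347 CPM in OIR libraries, against 366.7, 380.5 and 398 CPM in normal libraries. OIR 2 lay within the normal range, and the other OIR libraries below it. The difference was −0.17 on the log2 scale (SE 0.083), with a 95% interval of −0.35 to 0.01 (edgeR adjusted p of 0.188). At its 3′ end Opn1sw shares 397 exon bases with Calu, a calcium-binding protein gene on the opposite strand, which rose by 0.37 on the log2 scale (adjusted p in edgeR: 0.00241), and reads there cannot be told apart unless strand was used in counting.

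Opn1mw (ENSMUSG00000031394, chromosome X, 74127464 to 74150760, plus strand) encodes the middle-wavelength, green-sensitive pigment. It had 137, 162 and 130.5 CPM in OIR libraries, against 165, 186 and 165 CPM in normal libraries. Every OIR library was below every normal library, but OIR 2 lay close to Normal 1 and Normal 3. The difference was −0.26 on the log2 scale (SE 0.090), with a 95% interval of −0.46 to −0.07 (edgeR adjusted p of 0.0641). Permuting the 6 libraries exactly gave p = 0.1 (two-sided, on mean log2 CPM), the floor of a design with 3 libraries a group. Opn1mw is X-linked, and the difference was −0.48 among female and −0.03 among male libraries. The female difference rests on 1 normal library and the male difference on 1 OIR library. That is too few to decide whether the change differs between the sexes.

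The balance between the opsins did not differ beyond the spread between libraries. Per kilobase of the deposited gene length, the ratio of Opn1sw to Opn1mw was 1.33, 1.40 and 1.63 in OIR libraries, against 1.36, 1.25 and 1.47 in normal libraries. The ranges overlapped, with the highest ratio in OIR 3 and the lowest in Normal 2. Mean log2 ratios were 0.53 ± 0.15 in OIR and 0.44 ± 0.12 in normal retina (SD, n = 3 each), a difference of 0.09 with a standard error of 0.110 (exact two-sided permutation p = 0.5, adjusted p of 0.75 over 3 ratios). Relative to Gnat2, which both opsin types of cone use, the log2 level of Opn1sw was 1.73 ± 0.08 in OIR and 1.66 ± 0.06 in normal retina (exact permutation p = 0.3, adjusted p of 0.75). That of Opn1mw was 1.193 ± 0.123 in OIR and 1.224 ± 0.107 in normal retina (exact permutation p = 0.9, adjusted p of 0.9), and its difference of −0.03 turned to 0.04 without OIR 3 and to 0.03 without Normal 2.

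**Figure D2:**
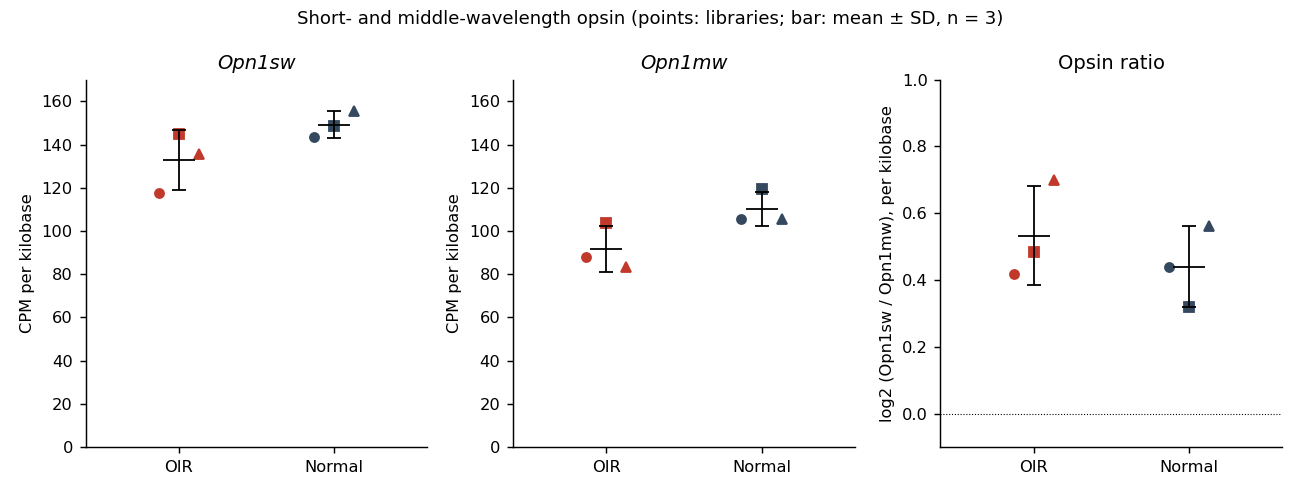
CPM per kilobase of Opn1sw and Opn1mw and the log2 of their ratio in each library, OIR left of normal, with the mean and SD over 3 libraries. The ratio points of the groups overlap, between 0.42 and 0.70 in OIR and between 0.32 and 0.56 in normal retina.

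Of the transducin genes, Gnat2 fell and Gngt2 did not pass. Gnat2 (ENSMUSG00000009108, chromosome 3, 108092789 to 108101432, plus strand), the alpha subunit that carries the signal from opsin to phosphodiesterase, had 114, 126 and 119.9 CPM in OIR libraries, against 142, 140.4 and 141 CPM in normal libraries. The normal libraries lay within 2 CPM of each other and all OIR libraries were lower. Gnat2 fell by 0.24 on the log2 scale, with a standard error of 0.066 and a 95% interval of −0.38 to −0.09, and OIR retina held 84.9% of the normal level (edgeR adjusted p of 0.0296). The change ranged from −0.28 to −0.19 over 14 alternatives, of which 7 passed. It did not pass with library totals alone (edgeR adjusted p of 0.0611), with the replicate block (0.0573), with sex as a covariate, or without OIR 1, OIR 2, OIR 3 or Normal 3. Among female libraries the difference was −0.27 and among male libraries −0.17. Of 2005 windows of 50 bases in the principal Gnat2 transcript, 37 also occurred in the gene Gm49651.

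Gngt2 (ENSMUSG00000038811, chromosome 11, 95837216 to 95845734, plus strand), the gamma subunit, had 33.1, 38.1 and 35.1 CPM in OIR libraries, against 34.03, 34.3 and 23.5 CPM in normal libraries. Normal 3 stood below the rest, and OIR 1 was below both other normal libraries. Its difference was 0.21 on the log2 scale (SE 0.136), with a 95% interval of −0.09 to 0.51 (edgeR adjusted p of 0.325), and it was 0.05 without Normal 3. Gngt2 shares 234 exon bases with Abi3, a gene of the opposite strand that microglia express. Abi3 had 2.12, 2.18 and 1.41 CPM in OIR libraries, against 1.198, 0.730 and 1.35 CPM in normal libraries. The summed level of the 6 microglial markers was 73.7 to 105 CPM in OIR and 40.3 to 52.9 CPM in normal retina, with none at 0, and its part in the Gngt2 value was not tested.

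Neither subunit of the cone phosphodiesterase passed. Pde6c (ENSMUSG00000024992, chromosome 19, 38132781 to 38183958, plus strand), the catalytic subunit, had 106, 119.9 and 110.1 CPM in OIR libraries, against 106, 135 and 116 CPM in normal libraries. The log2 fold change was −0.08 with a 95% interval of −0.29 to 0.12 (edgeR adjusted p of 0.583), and it was 0.01 without Normal 2. Pde6h (ENSMUSG00000064330, chromosome 6, 136923832 to 136968865, plus strand), the inhibitory subunit, had 98.0, 116 and 108 CPM in OIR libraries, against 109, 108 and 96.3 CPM in normal libraries. Its log2 fold change was 0.03 with a 95% interval of −0.15 to 0.22 (edgeR adjusted p of 0.823), and it turned to −0.03 without OIR 2 and −0.02 without Normal 3. Both intervals lie within a change of 0.3 on the log2 scale in either direction. Pde6h shares 136 exon bases with Arhgdib on the opposite strand, a gene of blood cells, which rose by 1.54 on the log2 scale from a low level, with 10.6 to 13.3 CPM in OIR and 3.73 to 4.74 CPM in normal libraries.

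The channel genes had the lowest levels of the cascade, and Cngb3 had the largest fall. Cngb3 (ENSMUSG00000056494, chromosome 4, 19280850 to 19510623, plus strand), the modulatory subunit, had 263, 290 and 272 counts in OIR libraries, against 330, 436 and 346 counts in normal libraries. These are 15.5, 17.1 and 15.98 CPM in OIR and 19.8, 26.5 and 22.2 CPM in normal retina, so that all OIR libraries were lower and the normal libraries were more spread. Cngb3 fell by 0.50 on the log2 scale, with a standard error of 0.128 and a 95% interval of −0.78 to −0.21, to 70.9% of the normal level (edgeR adjusted p of 0.0199). It passed in 10 of 14 alternatives, and not without OIR 1, OIR 3, Normal 2 or Normal 3 (edgeR adjusted p of 0.0516 to 0.0805). Without Normal 2, the library with the highest value, the difference was −0.38. Among female libraries it was −0.75 and among male libraries −0.29. Cnga3 (ENSMUSG00000026114, chromosome 1, 37214434 to 37263384, plus strand), the ion-conducting subunit, had 14.1, 17.2 and 14.3 CPM in OIR libraries, against 19.5, 18.4 and 18.5 CPM in normal libraries. Here too all OIR libraries were below all normal libraries, with OIR 2 the nearest. Its difference was −0.31 on the log2 scale (SE 0.118; edgeR adjusted p of 0.0953), and it passed in 0 of 14 alternatives, where it lay between −0.42 and −0.26.

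Arr3 and Thrb did not pass, and Arr3 had the widest relative spread of the members among the normal libraries. Arr3 (ENSMUSG00000060890, chromosome X, 100605497 to 100618493, plus strand) had 59.5, 73.1 and 66.4 CPM in OIR libraries, against 69.3, 112 and 74.7 CPM in normal libraries. Normal 2, the only female normal library, stood far above the rest, and OIR 2 lay within the range of the normal libraries. Its difference was −0.37 on the log2 scale (SE 0.160; edgeR adjusted p of 0.143), and it was −0.12 without Normal 2. Among male libraries the difference was 0.02 and among female libraries −0.84, and the female difference has Normal 2 as its only normal library. Thrb (ENSMUSG00000021779, chromosome 14, 17660261 to 18038090, plus strand) had 85.2, 80.5 and 68.6 CPM in OIR libraries, against 78.2, 100.1 and 94.3 CPM in normal libraries. OIR 1 and OIR 2 lay within the normal range, with a log2 fold change of −0.22 and a 95% interval of −0.46 to 0.02 (edgeR adjusted p of 0.192).

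In levels per kilobase, the opsins led the members and the channel genes came last among them in both groups. By the deposited gene length, Opn1sw had 133 ± 13.9 CPM per kilobase in OIR and 149 ± 6.11 in normal retina (SD, n = 3 each). Opn1mw followed with 91.7 ± 10.6 in OIR and 110.2 ± 7.88 in normal retina. Gnat2 (39.98 ± 2.05 in OIR, 47.1 ± 0.211 in normal retina) and Pde6c (37.8 ± 2.34 in OIR, 40.03 ± 4.97 in normal retina) came next, with spreads that overlap in OIR. Arr3 had 28.2 ± 2.90 CPM per kilobase in OIR and 36.3 ± 9.96 in normal retina, where it cannot be told from Pde6c. Gngt2 (18.9 ± 1.35 in OIR, 16.3 ± 3.27 in normal retina), Pde6h (13.7 ± 1.12 in OIR, 13.3 ± 0.925 in normal retina) and Thrb (10.5 ± 1.16 in OIR, 12.3 ± 1.53 in normal retina) lay in the middle. Among these, Gngt2 and Pde6h overlap in normal retina, as do Pde6h and Thrb. Cnga3 had 3.83 ± 0.435 in OIR and 4.75 ± 0.159 in normal retina, and Cngb3 3.44 ± 0.174 in OIR and 4.85 ± 0.725 in normal retina, without a difference beyond the spread between these genes. With the length of the principal transcript instead, Arr3 (48.8 in OIR, 62.9 in normal retina) stood above Pde6c (43.4 in OIR, 46.0 in normal retina), and the opsins came closer, with 141 for Opn1sw and 117 for Opn1mw in OIR and 158 and 140.2 in normal retina.

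Set against the rod genes of the same step, the cone genes did not all stand on one side. Of the 9 rod counterparts, 5 fell and 0 rose, with a median log2 fold change of −0.30. Over all genes tested, 8.73% fell and 11.1% rose. The rod arrestin gene Sag and the rod transducin gene Gnat1 fell by 0.51 and by 0.47 on the log2 scale, the phosphodiesterase genes Pde6a and Pde6b fell by 0.37 and by 0.38, and Gnb1 fell by 0.30 (edgeR adjusted p of 0.00086 to 0.015). The rod channel gene Cnga1 had a log2 fold change of 0.05 (edgeR adjusted p of 0.721), and Pde6g, Gngt1 and Cngb1 did not pass either. The ratio of a cone gene to its rod counterpart within a library does not depend on library scaling. Among 8 such ratios, 5 had all OIR libraries above all normal ones and 1 had them below. How often ratios of other gene pairs separate in this way was not computed. The rod genes Gnat1, Pde6b and Gnb1 in these ratios themselves fell. With 3 libraries a group no ratio can fall below an exact permutation p of 0.1, so these ratios are given by their size and spread (adjusted p of at least 0.133 over the 8).

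The ratio of Gnat2 to Gnat1 was higher in OIR retina by 0.24 on the log2 scale (standard error 0.061), with −5.85 ± 0.09 in OIR and −6.09 ± 0.06 in normal retina (SD, n = 3 each; exact permutation p = 0.1). Pde6c to Pde6b was higher by 0.30, Pde6h to Pde6g by 0.27 and Gngt2 to Gngt1 by 0.52, each without overlap between groups. The channel pairs went the other way. Cngb3 to Cngb1 was −4.50 ± 0.04 in OIR and −4.16 ± 0.20 in normal retina, a difference of −0.34 without overlap (exact permutation p = 0.1), and Cnga3 to Cnga1 differed by −0.38 with overlapping groups (exact permutation p = 0.2). The arrestin pair overlapped, with a difference of 0.17 for Arr3 to Sag (exact permutation p = 0.5).

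**Figure D3:**
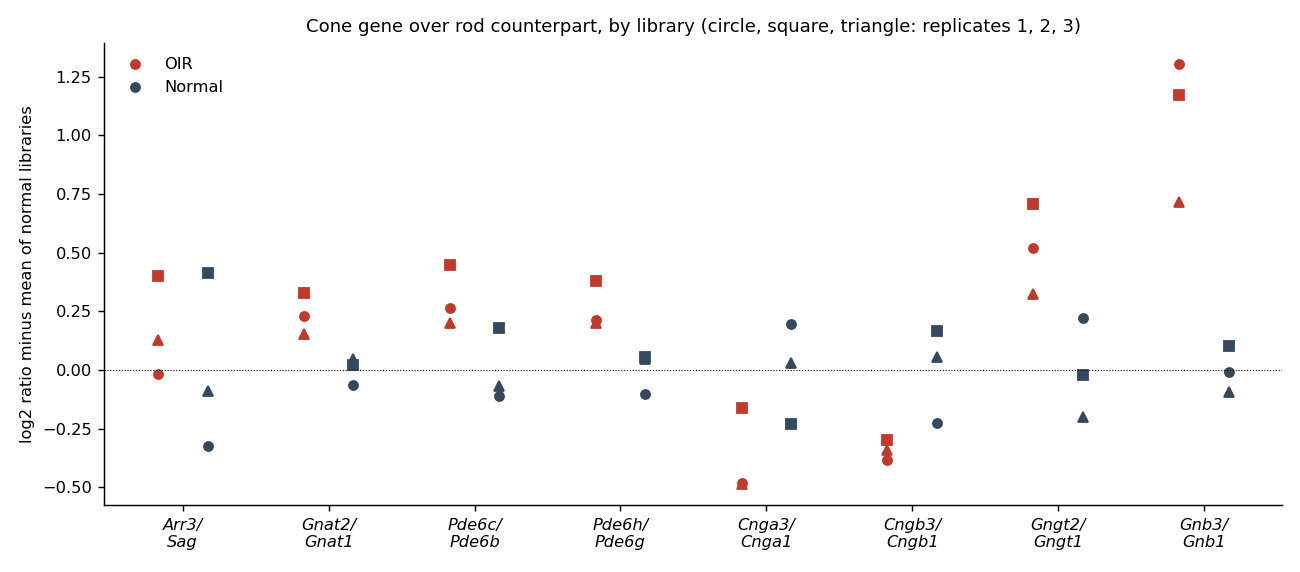
The log2 ratio of each cone gene to its rod counterpart in each library, minus the mean of the normal libraries for that pair; OIR points stand left of normal points. The pairs of Gnat2, Pde6c, Pde6h, Gngt2 and Gnb3 have all OIR points above the normal points, and that of Cngb3 has them below.

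Among 5 other cone-enriched genes, 1 rose and 1 fell in the edgeR test, where 11.1% of all genes tested rose and 8.73% fell. Gnb3, the cone transducin beta subunit that ON bipolar cells also use, had 503, 474 and 373 CPM in OIR libraries, against 268, 275 and 246 CPM in normal libraries. All OIR libraries were higher, and Gnb3 rose by 0.78 on the log2 scale, with a standard error of 0.104 (edgeR adjusted p of 0.000522). It passed without each library in turn, and its ratio to Gnb1 was higher by 1.07 on the log2 scale. Over the same libraries, the summed level of 8 bipolar markers was 970 to 1029 CPM in OIR and 1345 to 1449 CPM in normal retina, none of them rose and none was at 0. The part of bipolar cells in the Gnb3 value was not tested. Slc24a2, the cone sodium, calcium and potassium exchanger, fell by 0.36 on the log2 scale, with 90.4 ± 1.14 CPM in OIR and 115.9 ± 11.1 CPM in normal retina (SD, n = 3 each; edgeR adjusted p of 0.0106), and it did not pass without OIR 1 or without Normal 3. Kcne2, a potassium channel subunit, had a log2 fold change of 0.07, Ccdc136 one of −0.11 and Gulo, the enzyme of vitamin C synthesis, one of −0.25, and none of these passed. Ccdc136 is also the nearest gene beyond the promoter of Opn1sw.

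Of 20 phototransduction genes listed as shared by rods and cones, 4 fell and 0 rose. Of these 20, 19 had a negative log2 fold change, and the median of the list was −0.19. Whether both cell types express each listed gene was not tested. EdgeR called 8.73% of all genes tested lower and 11.1% higher. At an unadjusted p under 0.05 in the edgeR test, 13 were lower and 1 higher, beside 15.3% and 17.2% of all genes. DESeq2 called 9 lower and 0 higher at an adjusted p under 0.05, where it called 1586 of 18612 genes lower and 1817 higher. Guca1a, an activator of guanylate cyclase that restores cyclic GMP, fell by 0.59 on the log2 scale, with 129 ± 10.3 CPM in OIR and 195 ± 24.5 CPM in normal retina (SD, n = 3 each; edgeR adjusted p of 0.0017). The retinoid transporter gene Abca4 fell by 0.28, the potassium channel gene Kcnv2 by 0.24 and the opsin kinase gene Grk1 by 0.21 on the log2 scale (adjusted p in edgeR: 0.0178, 0.035 and 0.0491). Without OIR 1 only Guca1a passed, without Normal 1 there were 11 lower genes, and the replicate block left 1.

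None of the 24 tested genes of thyroid hormone signalling and opsin choice passed, and their median log2 fold change was −0.02. EdgeR gave 1 lower and 2 higher genes at an unadjusted p under 0.05 (15.3% and 17.2% over all genes). DESeq2 called 0 at an adjusted p under 0.05, beside 1586 of 18612 genes lower and 1817 higher. The photoreceptor transcription factor genes Crx, Nrl and Nr2e3 had log2 fold changes of −0.02, −0.10 and 0.02, and Neurod1 had one of 0.24 (edgeR adjusted p of 0.105). The remaining genes of this list were named after their values were seen. Sall3, the 1 lower gene at an unadjusted p under 0.05, had a log2 fold change of −0.35 (edgeR adjusted p of 0.0729). Its OIR libraries, with 8.90 to 10.5 CPM, all lay below its normal libraries, with 12.3 to 13.0 CPM. Rxrg, the retinoid receptor partner of thyroid hormone receptor in cones, had a log2 fold change of −0.14, Dio2, which activates thyroid hormone, −0.14 and Dio3, which degrades it, 0.37, with edgeR adjusted p of 0.301 to 0.515. Samd7, a photoreceptor repressor, had 185, 300.8 and 189 CPM in OIR libraries, against 139, 184 and 142 CPM in normal libraries. All OIR libraries were above the normal ones, with OIR 1 just above Normal 2 and OIR 2 far above, and the log2 fold change of 0.54 did not pass (edgeR adjusted p of 0.0534). The difference was 0.03 among female and 1.09 among male libraries, and OIR 2 is the only male OIR library. It passed with library totals alone, with no filter, under the replicate block and without OIR 1, OIR 3 or Normal 2, all in the same direction.

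**Figure D4:**
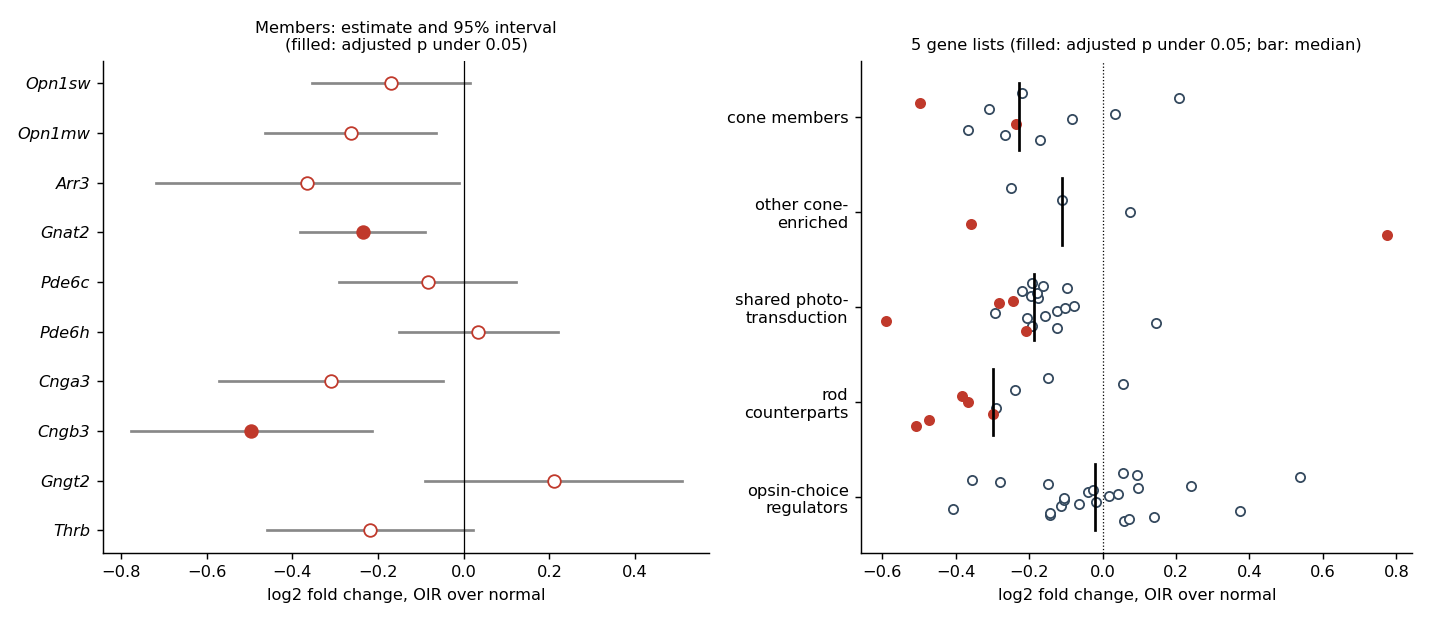
Log2 fold changes of OIR over normal retina in the edgeR test, for the 10 members with 95% intervals (left) and for the members and 4 companion lists with the median as a bar (right); filled points have an adjusted p under 0.05. Gnat2 and Cngb3 are the filled members, and the median of the members, −0.23, lies between those of the shared genes, −0.19, and the rod counterparts, −0.30.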

How the data were processed

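Raw gene counts of 6 libraries were deposited with the gene lengths. TRIzol RNA went into NEBNext Ultra RNA libraries, per the labels' protocols. The authors used HISAT2 2.0.5 and featureCounts 1.5.0-p3 on mm10, besides fastp, CASAVA 1.8 and DESeq2 1.20.0, per the submitters' processing notes; the sources used here give no annotation release or strand setting. Column names gave each library's sample; the normal columns carry only the day and number and were told by the absence of OIR. Replicates were separate samples beyond sampling noise (7.20 to 23.1 chi-square units per degree of freedom). Counts were tested with edgeR 4.0.16 (R 4.3.3; glmQLFTest, TMM scaling, filterByExpr with minimum count 10 and total 15), adjusted by Benjamini-Hochberg over 17108 genes. Standard errors are the log2 fold change over the square root of F. Log2 ratios are of counts per kilobase, compared by exact permutation. Alternatives were DESeq2 1.42.0, limma-voom (limma 3.58.1), other scalings, filters and thresholds, sex or replicate number as covariates, and leaving out each library; the edgeR test was tested on simulated data. Positions equal those of GENCODE vM21 for all 10 members. Intervals cover the spread between these samples. The members and lists were chosen with earlier results of these data known. Named are the members, their rod counterparts, up to 4 genes per companion list by adjusted p (by mean CPM where fewer than 2 passed), overlapping or neighbouring genes, and the 3 genes nearest in pattern to each opsin. Some genes and the ratios that need them are not reported here.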

Additional observations from a re-analysis of the deposited data

How the results depend on the processing

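Members of the cone cascade called lower numbered 2 in the edgeR test, 1 with library totals alone, 4 with no filter, 1 with sex as a covariate and 0 at an adjusted p under 0.01, and 0 to 4 when 1 library was left out; none was called higher in any fit. The deviations of same-numbered libraries had correlations of 0.17, −0.26 and 0.22, and those of differently numbered libraries −0.36 to 0.14. With 3 libraries a group, these values cannot decide whether the replicate numbers pair the libraries. The replicate block called 3 members lower (Opn1mw, Arr3 and Cngb3), and Gnat2 no longer passed (edgeR adjusted p of 0.0573). Other cone-enriched genes called lower numbered 0 at 0.01 and 0 to 1 without 1 library. Shared phototransduction genes called lower numbered 2 with library totals alone, 7 with no filter, 1 with the replicate block, 7 in limma-voom, 9 in DESeq2 and 1 at 0.01, and 1 to 11 without 1 library. Regulators called higher numbered 1 with library totals alone, 2 with no filter, 1 with the replicate block and 0 to 2 without 1 library. Over all genes, 647 were lower and 1116 higher at 0.01, and 761 to 1734 lower and 1237 to 2097 higher without 1 library. Signs turned for Pde6c (−0.161 to 0.0145 when 1 library was left out), Pde6h (−0.0337 to 0.0897, with −0.0245 without Normal 3), and the ratio of Opn1mw to Gnat2 (−0.0862 to 0.0351), and the cause was not tested. The other 97 ratio alternatives kept their sign. Library totals alone moved the median of all genes by 0.043 on the log2 scale, the largest shift among the scalings tried. With 3 libraries per group, no ratio can reach an exact permutation p under 0.1.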

Other observations

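The genes nearest in pattern to each opsin over the 6 libraries, by the root mean square difference of centred log2 CPM among 10786 genes with a mean of at least 10 CPM, were as follows. For Opn1sw they were Emc3, a subunit of the membrane protein insertion complex, Dcun1d3 and 9330102E08Rik, at differences of 0.035, 0.040 and 0.045. Emc3 had 58.2, 68.4 and 63.7 CPM in OIR libraries, against 65.8, 68.8 and 72.9 CPM in normal libraries. For Opn1mw they were the phosphate transporter gene Slc20a1, Gas7 and the mitochondrial import gene Timm44, at 0.051, 0.052 and 0.052. In the edgeR test Slc20a1 fell by 0.31 (adjusted p of 0.0162) and Gas7 fell by 0.27 in log2 units (adjusted p of 0.022), while Opn1mw at −0.26 did not pass.

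Tex28, the nearest gene after Opn1mw, had a log2 fold change of 0.07 and did not pass, and Fam71f1, the next gene beyond Calu, had too few counts to be tested.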
